A study of Mus musculus with 4 samples.

Results

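The genes of the Mediator complex were compared between Chd1-null and control mouse embryonic stem cells, which are pluripotent cells kept in culture. Chd1 is a remodeler that uses ATP to move nucleosomes at transcribed genes. Mediator genes were taken by symbol (Med followed by a number and an optional l, or Cdk8, Cdk19 or Ccnc), and only as loci of a single gene present in both deposited tables. This gave 31 genes of the 11728 named once in both tables. Med20 and Med28 were not among them, because each shared its locus with a neighbouring gene in set 1.

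All cells were Rosa26CreER;Chd1fl/-, with a tamoxifen-inducible Cre recombinase, 1 floxed Chd1 allele and 1 null allele, and were grown in serum with LIF. Chd1-null cells had received 1 µM tamoxifen for 48 to 72 h and control cells ethanol, followed by 3 to 5 passages without tamoxifen, so the control cells carried 1 functional allele. Each RNA sample was taken from the same number of living cells, with synthetic spike-in transcripts added. There were 4 libraries, 1 Chd1-null and 1 control in each of set 1 and set 2, so n = 2 per group. The labels name 2 independently derived lines without tying a line to a set. The p-values come from these 4 libraries only, through a variance shared by genes of similar level. Values were taken as FPKM (fragments scaled to transcript length and sequencing depth), and each set has a table of its own, so each ratio was formed within a set. Whether the deposited values were scaled to the spike-in transcripts is not given in the sources used here.

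Mediator is a large complex that carries signals from transcription factors at enhancers to RNA polymerase II at promoters. Its head and middle modules contact the polymerase, its tail module is the main docking surface for transcription factors, and Med14 is the scaffold that joins them. A separable kinase module, built of Cdk8 or Cdk19, cyclin C, Med12 and Med13, binds the core reversibly and limits its contact with the polymerase. In embryonic stem cells Mediator is known for its high occupancy at enhancers of pluripotency genes and for its association with cohesin.

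Chd1 stood at 5.71 FPKM in Chd1-null 1 against 27.6 in control 1, and at 8.52 in Chd1-null 2 against 17.9 in control 2. It fell by 1.66 on the log2 scale (SE 0.25, limma adjusted p = 1.82e-08), to 20.7% of control in set 1 and 47.7% in set 2. Relative to the median of all tested genes in each set, its change was -1.26 (limma adjusted p = 0.00081), with -1.79 in set 1 and -0.73 in set 2. With one common prior variance, or without set as a block, Chd1 did not pass on the deposited scale (limma adjusted p of 0.288 and 0.461). FPKM summed over all loci was 466994 to 518032 in the Chd1-null libraries and 584520 to 719549 in the controls. The median of the 10261 tested genes was a log2 ratio of -0.46 in set 1 and -0.33 in set 2. Of 10 embryonic stem cell markers 8 fell (limma, adjusted over all tested genes, of which 9.80% fell). Relative to the set medians 0 passed, and 3 had an unadjusted limma p under 0.05, against 645 of all 10261 tested genes. Of the 10 markers, 4 lay below both set medians (24.6% of all tested genes did). Their summed level was 2136 and 2061 FPKM in Chd1-null 1 and 2, against 2882 and 3583 in control 1 and 2. Markers of fibroblasts and feeders summed to 2.65 and 4.44 FPKM in Chd1-null 1 and 2, against 2.69 and 8.29 in control 1 and 2, over the 5 of 8 listed genes in both tables. In the same order, 5 neural markers summed to 31.1 and 27.1 against 48.1 and 33.7 FPKM, and 5 primed epiblast markers to 29.99 and 67.9 against 32.2 and 53.9 FPKM. Primitive endoderm (2 of 6 markers in both tables) and trophectoderm (2 of 5) summed to at most 2.62 FPKM in any library. Other markers of these lists were not analysed here, and the part of any of these cells in the Mediator values was not tested. In bulk RNA, fewer cells of a type and less RNA per cell cannot be told apart.

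Mediator transcripts differed widely in level, as FPKM, which is per transcript length, and the highest and the lowest gene were the same in all 4 libraries. Med30, a head subunit found in animals but not in yeast, was the highest at 83.4 and 78.8 FPKM in Chd1-null 1 and 2, against 73.3 and 95.9 FPKM in control 1 and 2. Med12l, a paralogue of Med12, was the lowest at 0.481 and 0.192 FPKM in Chd1-null 1 and 2, against 0.819 and 0.143 in control 1 and 2. The median member stood at 14.3 and 13.5 FPKM in Chd1-null 1 and 2, against 17.7 and 18.5 in control 1 and 2. Over all 31 genes, summed FPKM was 503 in Chd1-null 1 against 608 in control 1 (82.7% of control), and 462 in Chd1-null 2 against 577 in control 2 (80.0%). These sums are weighted towards the abundant head genes. Med12l was under a mean of 1 FPKM over the 4 libraries, the level needed for testing, and the other 30 genes were tested.

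**Figure D1:**
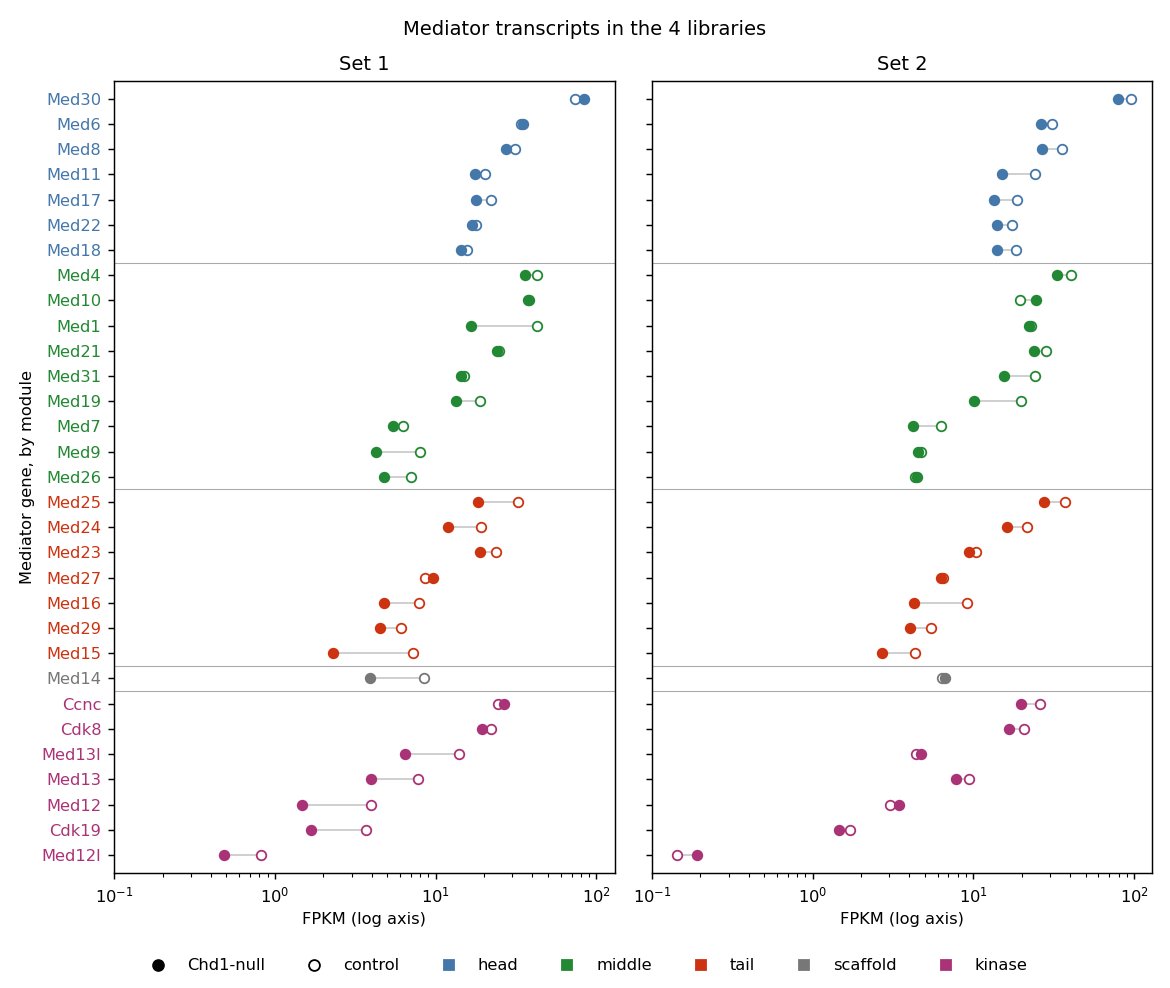
FPKM on a log axis of the 31 Mediator genes in set 1 (left panel) and set 2 (right panel), with filled points for the Chd1-null library and open points for the control library of that set (1 library each). In set 1 the points of Med1, Med12, Med13, Med13l, Med14, Med15 and Cdk19 lie far apart, whereas those of the head genes lie close together.

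Mediator genes as a group stood near the median of all genes. Their median stood at a log2 ratio of -0.32 for set 1 and -0.30 for set 2, which is 0.14 and 0.03 above the median of all tested genes. Of the 30 genes, 21 were lower in Chd1-null cells in both sets (70.0%, against 72.4% of all tested genes). Another 9 of the 30 went opposite ways, as did 24.8% of all tested genes. The number higher in both sets was 0 of 30, against 288 of all 10261 tested genes. With each library divided by its own FPKM sum, which shifts all genes upwards in Chd1-null cells, 15 of the 30 fitted changes were below 0, against 28 on the deposited scale. On the deposited scale 5 of 30 fell (16.7%, against 9.80% of all tested genes) in limma, blocked by set, at an adjusted p of 0.05 (Benjamini-Hochberg, over all tested genes). None rose (0.0682% of all tested genes did). An unadjusted limma p under 0.05 was found for 8 of 30, and for 2995 of all 10261 tested genes. Relative to each set's median, 0 of 30 passed in limma (0.214% of all tested genes fell and 0.146% rose). There, 2 of 30 had an unadjusted limma p under 0.05, against 645 of all 10261 tested genes.

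The 5 genes that fell were Med15, Med16 and Med25 of the tail and Med1 and Med19 of the middle module. The tail subunit Med15, a docking site for transcription factors such as SREBP, was at 2.29 FPKM in Chd1-null 1 against 7.24 in control 1, and at 2.70 in Chd1-null 2 against 4.30 in control 2. It was the lowest Mediator gene of set 1 by ratio (31.6% of control, percentile 3.32 of all tested genes) and also low in set 2 (62.8%, percentile 18.2). Its log2 fold change was -1.14 (limma SE 0.40, n = 2 pairs, adjusted p = 0.0449). Relative to the set medians the change was -0.74 (limma adjusted p = 0.737).

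Med16, another tail subunit, was at 4.79 FPKM in Chd1-null 1 against 7.88 in control 1, and at 4.24 in Chd1-null 2 against 9.15 in control 2. Its ratio was lower in set 2, where it lay at percentile 4.09 of all tested genes, than in set 1, where it lay at percentile 31.5. It fell by 0.90 on the log2 scale (SE 0.32, limma adjusted p = 0.0490). Med25, the tail subunit bound by the viral activator VP16, was at 18.3 FPKM in Chd1-null 1 against 32.6 in control 1, and at 27.6 in Chd1-null 2 against 36.9 in control 2. It fell by 0.62 (SE 0.20, limma adjusted p = 0.0282), with 56.2% of control in set 1 and 74.8% in set 2. Both genes were thus lower in each set. Med16 lay closer to the all-gene median than Med25 in set 1, and Med25 lay closer in set 2.

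Med19, a middle subunit, was at 13.3 FPKM in Chd1-null 1 against 18.8 in control 1, and at 10.1 in Chd1-null 2 against 19.8 in control 2. It was lower in both sets, and the larger part of the change was in set 2 (50.8% of control, against 70.8% in set 1). It fell by 0.73 (SE 0.23, limma adjusted p = 0.0271). In the RefSeq annotation Med19 overlaps the protein-coding genes Tmx2 and Zdhhc5. The libraries kept strand, per the labels, but whether the counting used it is not given in the sources used here, so reads could be shared.

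Med1, the middle subunit that binds nuclear receptors, differed between the sets. It was at 16.6 FPKM in Chd1-null 1 against 42.6 in control 1, but at 22.3 in Chd1-null 2 against 22.9 in control 2. Its log2 ratio stood at -1.35 for set 1 and -0.04 for set 2, so that the call (log2 fold change -0.69, SE 0.21, limma adjusted p = 0.0169) rests on set 1. The limma standard error comes from a variance shared by genes of similar level (prior degrees of freedom Inf), and the spread of a gene between its own sets (SD 0.93 for Med1) does not enter it. The adjusted limma p of the 5 genes lay between 0.0169 and 0.0490. With a mean of at least 5 FPKM, with one common prior variance, without set as a block, or with each library scaled to its own sum, 0 of the Mediator genes passed; Med15 is under 5 FPKM and was not tested with that minimum.

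The 150 bases before the annotated start of each of the 5 genes that fell, and of Med27, which was among the highest by ratio, are shown for comparison of their composition (RefSeq, GRCm38.p6, first listed start, 5′ to 3′ along the gene). Capitals mark CCGGAAG, the core bound by ETS-family factors.
Med15, chr16:17722948-17723097, minus strand: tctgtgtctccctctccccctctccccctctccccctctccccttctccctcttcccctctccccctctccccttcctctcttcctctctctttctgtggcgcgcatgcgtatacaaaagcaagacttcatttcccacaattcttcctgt
Med1, chr11:98192907-98193056, minus strand: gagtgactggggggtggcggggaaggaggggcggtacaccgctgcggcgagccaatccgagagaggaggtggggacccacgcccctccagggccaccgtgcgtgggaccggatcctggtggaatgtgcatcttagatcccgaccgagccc
Med25, chr7:44892425-44892574, minus strand: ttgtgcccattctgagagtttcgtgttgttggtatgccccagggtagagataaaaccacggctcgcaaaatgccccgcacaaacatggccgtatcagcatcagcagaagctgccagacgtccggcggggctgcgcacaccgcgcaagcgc
Med19, chr2:84678252-84678401, plus strand: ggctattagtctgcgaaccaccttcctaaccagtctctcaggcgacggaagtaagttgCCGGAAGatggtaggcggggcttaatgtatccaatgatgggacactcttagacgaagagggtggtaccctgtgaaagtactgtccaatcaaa
Med16, chr10:79908939-79909088, minus strand: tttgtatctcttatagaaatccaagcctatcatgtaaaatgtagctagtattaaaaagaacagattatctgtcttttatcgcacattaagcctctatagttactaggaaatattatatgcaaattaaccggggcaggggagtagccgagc
Med27, chr2:29346660-29346809, plus strand: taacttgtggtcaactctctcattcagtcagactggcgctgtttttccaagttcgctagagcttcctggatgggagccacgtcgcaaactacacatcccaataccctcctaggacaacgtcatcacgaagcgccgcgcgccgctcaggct

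These windows differed in composition. Med1 and Med25 held 12 CpG dinucleotides each, Med27 11, Med19 6, and Med15 and Med16 3 each. The upstream part of the Med15 window is a run of C and T, and its CpG lie downstream of it. Promoter entries matched 26 of the 31 genes, whose windows held a median of 12 CpG against 4 over all 27025 promoters. Those promoters were not limited to the tested genes, so whether Mediator windows differ from those of other tested genes was not examined. CCGGAAG, searched on both strands, was in the windows of Med4, Med17 and Med19 (11.5% of the 26, against 5.68% of all promoters). CACGTG, the E-box, was in 1 window (Med17; 4.30% of all promoters). TATAAA (8.08% of all promoters), the NRF1 palindrome (0.655%) and the YY1 element (0.163%) were in 0 of the 26. Chromatin was not measured, and these matches describe letters only.

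The modules were then compared by their ratios within each set. The head module, which grips the polymerase together with the middle module, held 7 genes, and 0 of them passed the test (limma, 1 with an unadjusted p under 0.05). In set 1 every head gene lay above the all-gene median, between a log2 ratio of -0.31 (Med17) and 0.18 (Med30), with a module median of -0.11. In set 2 every head gene was lower in Chd1-null cells, as were 8451 of all 10261 tested genes. The head ratios there lay between -0.67 (Med11) and -0.24 (Med6), with a median of -0.40, slightly under that of all genes. Med6, Med8, Med18 and Med22 stood at 88.5% to 103% of control in set 1 and at 75.1% to 84.9% in set 2. The summed FPKM of the head genes was 99.3% of control in set 1 and 78.1% in set 2. Med30 alone made up 83.4 of the 212 FPKM in Chd1-null 1 and 73.3 of the 214 FPKM in control 1. By gene, 5 of the 7 were lower in Chd1-null cells of set 1.

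Of the 9 middle genes, 2 fell (22.2%, against 9.80% of all tested genes). The module median was -0.26 in set 1 and -0.25 in set 2, above the all-gene median in both, although single genes ranged from -1.35 (Med1) to -0.02 (Med10) in set 1. Med10 had the highest ratio of any tested Mediator gene in either set (127% of control in set 2). It was at 37.6 FPKM in Chd1-null 1 against 38.2 in control 1, and at 24.6 in Chd1-null 2 against 19.4 in control 2. Relative to the set medians its change was 0.55, the highest of the 30 genes, without passing the test (limma adjusted p = 0.562). Med4 was alike in both sets (83.6% and 81.9% of control), Med7, Med21 and Med31 were at 85.7% to 96.9% in set 1 and 63.7% to 83.9% in set 2, and Med9 was at 53.8% in set 1 and 95.6% in set 2. Med26, which recruits elongation factors to the polymerase, was at 4.78 FPKM in Chd1-null 1 against 6.99 in control 1 and at 4.48 in Chd1-null 2 against 4.35 in control 2, and did not pass (limma adjusted p = 0.608).

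The tail module held 7 genes, of which 3 fell (42.9%, against 9.80% of all tested genes) and 0 passed relative to the set medians (limma, 1 with an unadjusted p under 0.05). Of the 3, Med15 and Med16 did not pass with no filter on level or with robust eBayes (limma adjusted p of 0.0502 to 0.0707). The tail was the only one of the head, middle, tail and kinase modules with a median below that of all genes in both sets. Its median stood at -0.69 for set 1 and -0.42 for set 2, which is -0.23 and -0.09 relative to the all-gene medians. With the means over the sets, the tail stood at -0.55 ± 0.19 (SD, n = 2 sets), the head at -0.25 ± 0.20 and the middle at -0.26 ± 0.0042. Relative to the all-gene medians they stood at -0.16 ± 0.097, 0.14 ± 0.30 and 0.14 ± 0.088. These SDs are of 2 module medians and do not measure the spread of genes within a module. Of the 7 tail genes, 4 (Med15, Med16, Med24 and Med25) lay below both set medians, against 1 of 9 middle genes, 0 of 7 head genes and 0 of 6 kinase genes, and 24.6% of all tested genes. With 2 sets, an exact sign-flip test over the pairs cannot give a two-sided p under 0.5, so these module differences carry no test.

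Within the tail the genes were not alike. Med24 was at 11.9 FPKM in Chd1-null 1 against 19.1 in control 1 and at 16.2 in Chd1-null 2 against 21.6 in control 2, close to the ratios of Med25, but did not pass (limma adjusted p = 0.0900). Med23, a subunit that receives signals from the growth-factor-responsive factor Elk1, was at 79.6% of control in set 1 and 90.8% in set 2, above the all-gene median in both. Med27 was at 9.62 FPKM in Chd1-null 1 against 8.59 in control 1, and at 6.32 in Chd1-null 2 against 6.45 in control 2, and so hardly differed between the groups. Med29 was alike in both sets, at 74.1% and 73.7% of control. Accounts of the complex differ on whether Med27 and Med29 belong to the tail or the head. With both counted in the head module, the means over the sets were -0.25 for the head and -0.56 for the tail, close to the values above.

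**Figure D2:**
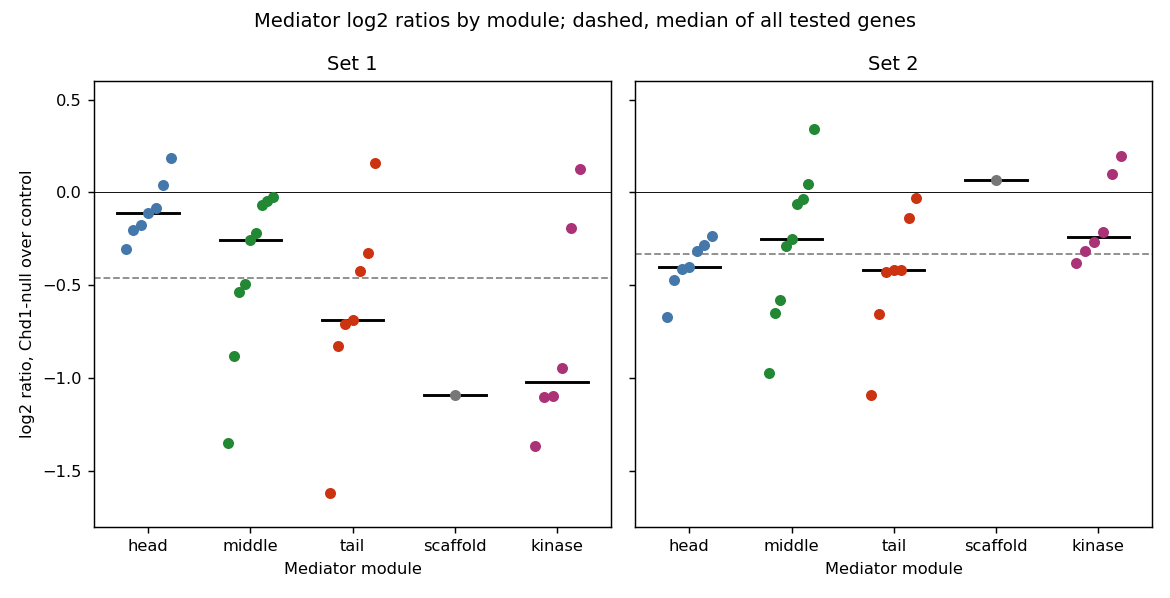
Log2 ratio of Chd1-null over control for each of the 30 tested Mediator genes (points) by module in set 1 (left) and set 2 (right), with module medians as black bars and the median of all tested genes as a dashed line. In set 1 every head gene lies above the dashed line, and the medians of the tail and kinase modules and Med14 lie below it, while in set 2 the medians lie between -0.42 and 0.07.

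The kinase genes were spread more widely in set 1 (log2 ratios of -1.36 to 0.12) than in set 2 (-0.38 to 0.20). Cdk8, its main catalytic subunit, was at 19.3 FPKM in Chd1-null 1 against 22.0 in control 1, and at 16.7 in Chd1-null 2 against 20.7 in control 2. Its activating partner cyclin C (Ccnc) was at 26.7 FPKM in Chd1-null 1 against 24.5 in control 1, and at 19.9 in Chd1-null 2 against 25.9 in control 2. Both kept 76.7% or more of the control level in each set, and Ccnc overlaps the coding gene Tstd3 in the RefSeq annotation.

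The large regulatory subunits and the second kinase behaved otherwise. Med12, which activates the kinase, was at 1.48 FPKM in Chd1-null 1 against 3.96 in control 1, but at 3.47 in Chd1-null 2 against 3.01 in control 2. Med13, which tethers the module to the core, was at 3.96 FPKM in Chd1-null 1 against 7.72 in control 1, and at 7.82 in Chd1-null 2 against 9.44 in control 2. Med12 stood at 37.3% of control in set 1 and 115% in set 2, and Med13 at 51.2% and 82.8%, so both were far below control in set 1 alone.

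The paralogue Med13l was at 6.46 FPKM in Chd1-null 1 against 14.0 in control 1, and at 4.69 in Chd1-null 2 against 4.37 in control 2. Cdk19, the paralogue of Cdk8, was at 1.68 FPKM in Chd1-null 1 against 3.71 in control 1, and at 1.46 in Chd1-null 2 against 1.71 in control 2. Both were low in Chd1-null cells of set 1 and nearer to control in set 2. The scaffold Med14 had the same pattern, at 3.91 FPKM in Chd1-null 1 against 8.45 in control 1, and at 6.67 in Chd1-null 2 against 6.36 in control 2 (limma adjusted p = 0.262). None of the 6 tested kinase genes passed the test on the deposited scale (limma, 1 with an unadjusted p under 0.05, Med13), and the module median was -1.02 in set 1 and -0.24 in set 2. The mean of the sets was -0.63 ± 0.55 (SD, n = 2 sets), a spread larger than the distance of the kinase module from any of the head, middle and tail modules. The adjusted limma p was 0.359 for Med12, 0.165 for Med13, 0.258 for Med13l, 0.380 for Cdk19, 0.407 for Cdk8 and 0.655 for Ccnc.

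Ratios between paralogues within a library do not depend on the scaling of the tables. Cdk8 transcript was 11.5 times that of Cdk19 in Chd1-null 1 against 5.95 times in control 1, and 11.4 times in Chd1-null 2 against 12.1 times in control 2. Med13l exceeded Med13 in set 1, at 1.63 times in Chd1-null 1 and 1.81 times in control 1, whereas it was the lower of the pair in set 2, at 0.6003 times in Chd1-null 2 and 0.464 times in control 2. The order of these paralogues thus followed the set and not the genotype. Med12 exceeded Med12l in all 4 libraries, by 3.07 times in Chd1-null 1 against 4.83 times in control 1, and by 18.04 times in Chd1-null 2 against 21.1 times in control 2. The Med12l locus also spans 6 other protein-coding genes in the RefSeq annotation, so its low values are uncertain.

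The sets differed most for Med12 (log2 ratio in set 1 minus set 2 of -1.56), Med1 (-1.31) and Med13l (-1.20). With 1 pair per set the difference between sets could not be tested. Between set 1 and set 2, Pearson r over the 30 log2 ratios was -0.13 (Spearman rho = -0.10); genes do not count as independent replicates. Across all tested genes these values were 0.0306 and 0.00406. The controls differed between sets as well, on tables whose scaling to each other is not known. For Med1, Chd1-null 1 over Chd1-null 2 was 0.747 and control 1 over control 2 was 1.86, and for Med13l these ratios were 1.38 and 3.20. For Med12 they were 0.426 and 1.31.

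**Figure D3:**
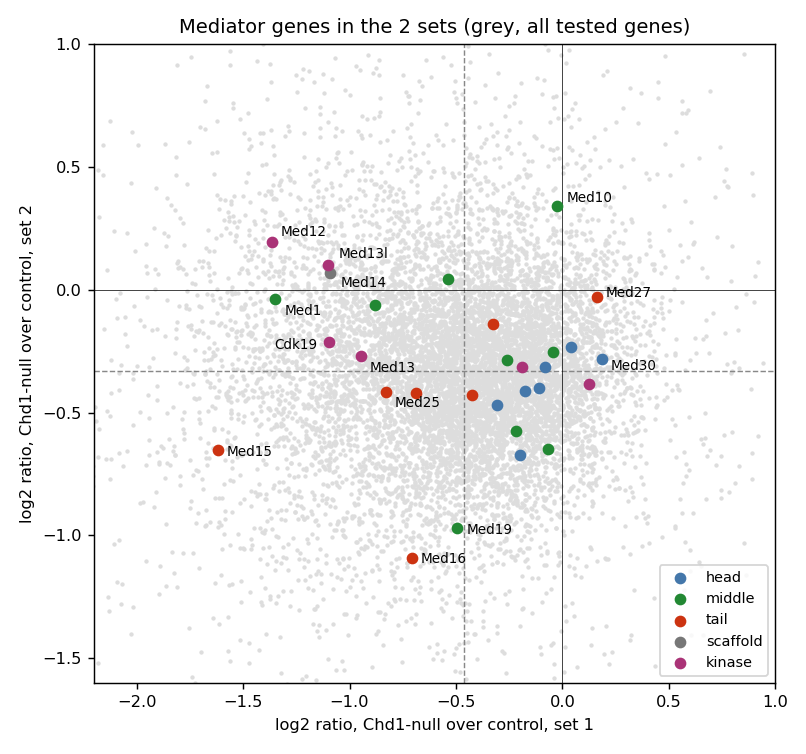
Log2 ratio of Chd1-null over control in set 1 (horizontal axis) against set 2 (vertical axis) for the 30 tested Mediator genes, coloured by module, over all tested genes within the axis limits in grey; dashed lines are the medians of all tested genes. Med15 and Med16 lie low on both axes, whereas Med1, Med12, Med13l and Med14 lie at -1.36 to -1.09 in set 1 and at -0.04 to 0.20 in set 2.

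In set 1 the low ratios lay mostly among genes with long transcripts, although Med15, the lowest, is of medium length (3410 bases). The longest annotated protein-coding transcript (GENCODE M21) was 902 to 3964 bases for head genes, 814 to 8024 for middle genes, 1281 to 5098 for tail genes, 6963 for Med14 and 2973 to 10546 for tested kinase genes. The 10 Mediator genes with the longest transcripts had a median log2 ratio of -1.02 in set 1 and -0.18 in set 2, and the 10 with the shortest had -0.06 in set 1 and -0.28 in set 2. Across the 30 genes the log2 ratio and log2 length had Pearson r = -0.71 in set 1 and 0.22 in set 2. The same relation had r = -0.36 and 0.18 across the 9625 tested genes with a length. Points of a set share both of its libraries, so these are descriptions.

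Level moved with length, since longer Mediator transcripts were lower in FPKM (r = -0.48). The log2 ratio and log2 level of the 30 genes had r = 0.61 in set 1 and -0.07 in set 2, against 0.38 and -0.13 across all tested genes. GC content of the transcript and the log2 ratio had r = -0.31 in set 1 and -0.12 in set 2, against -0.096 and -0.079 across all tested genes with a length. All tested genes whose transcripts fell in the length range of the 10 longest Mediator genes (3855 genes) had medians of -0.64 in set 1 and -0.26 in set 2.

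When each set's trend of the log2 ratio on transcript length, over all genes with a length, was subtracted in place of the median, an alternative chosen after seeing the data, the head, middle, tail and kinase medians lay nearer to each other in set 1 but not in set 2. The kinase median was -0.07 in set 1 and 0.03 in set 2, against -0.56 and 0.09 with the median subtracted. The tail median was -0.20 in set 1 and -0.08 in set 2, against -0.23 and -0.09. The head median was 0.23 in set 1 and 0.02 in set 2, against 0.35 and -0.07, and the middle median -0.02 and 0.15, against 0.20 and 0.08. With the trend on level subtracted instead, the kinase median was -0.34 in set 1 and 0.07 in set 2, and the tail median -0.15 and -0.04. Med14 stood at -0.29 in set 1 and 0.26 in set 2 with the length trend removed. No RNA quality value was analysed here, and its part in the relation with length was not tested.

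**Figure D4:**
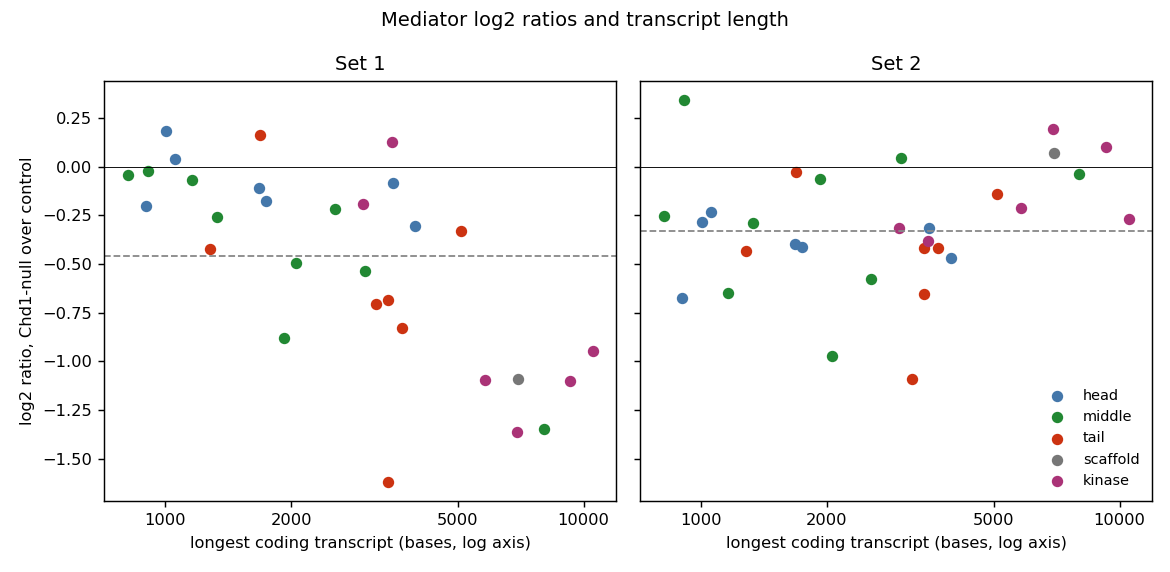
Log2 ratio of Chd1-null over control for the 30 tested Mediator genes against the length of the longest annotated protein-coding transcript in bases (log axis), in set 1 (left) and set 2 (right); dashed lines are the medians of all tested genes. In set 1 the ratio declines with length (r = -0.71), and in set 2 it does not (r = 0.22).

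As shares of the summed Mediator FPKM within a library, the head made up 42.2% in Chd1-null 1 against 35.2% in control 1, and 40.8% in Chd1-null 2 against 41.8% in control 2. The tail made up 14.0% in Chd1-null 1 against 17.3% in control 1, and 15.3% in Chd1-null 2 against 16.3% in control 2. The kinase share was 12.0% in Chd1-null 1 against 12.6% in control 1, and 11.7% in Chd1-null 2 against 11.3% in control 2. The tail share was lower in Chd1-null cells in both sets, while the middle share was lower in set 1 (31.1% against 33.5%) and higher in set 2 (30.8% against 29.5%). The middle sum was 156 FPKM in Chd1-null 1 against 204 in control 1, of which Med1 alone made up 16.6 and 42.6. The lower middle share of set 1 thus rests largely on Med1.

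Partners of Mediator were read in the same way. Of 12 RNA polymerase II subunits 2 fell (16.7%, against 9.80% of all tested genes) and 0 rose, with list medians of -0.15 in set 1 and -0.23 in set 2, above those of all genes. Polr2a, the largest subunit, whose carboxy-terminal domain Mediator binds, was at 5.18 FPKM in Chd1-null 1 against 23.2 in control 1, and at 8.67 in Chd1-null 2 against 8.19 in control 2 (log2 fold change -1.03, SE 0.27, limma adjusted p = 0.0057), which is the set 1 pattern of Med1. Polr2e was at 76.4 FPKM in Chd1-null 1 against 99.3 in control 1, and at 61.5 in Chd1-null 2 against 113.5 in control 2, and fell by 0.63 (SE 0.17, limma adjusted p = 0.0089). Of 18 general transcription factors 0 passed in limma, with medians of -0.18 and -0.28. Of the 18, 4 had an unadjusted limma p under 0.05, as did 2995 of all 10261 tested genes.

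All 11 tested genes of the super elongation complex and P-TEFb, which Med26 and the kinase module help to recruit, were lower in both sets, as were 72.4% of all tested genes. In set 1 all 11 lay below the set median, and in set 2, 4 of the 11 did. Of the 11, 1 fell (9.09%, against 9.80% of all tested genes). This was the cyclin Ccnt1, at 9.34 FPKM in Chd1-null 1 against 15.9 in control 1, and at 34.7 in Chd1-null 2 against 49.5 in control 2 (by 0.64, SE 0.21, limma adjusted p = 0.0327), and the list medians were -0.76 in set 1 and -0.32 in set 2. Of 9 enhancer coactivators and cohesin genes 3 fell (33.3%, against 9.80% of all tested genes). The list median was -1.04 for set 1, where 6 of the 9 lay below the set median. It was -0.20 for set 2, where 2 of the 9 did. The values of 2 of the 3 genes that fell follow. Rad21, a cohesin subunit, was at 35.6 FPKM in Chd1-null 1 against 85.8 in control 1, and at 29.2 in Chd1-null 2 against 40.6 in control 2. It was thus lower in both sets and fell by 0.87 (SE 0.18, limma adjusted p = 0.00035). The acetyltransferase Ep300 was at 4.25 FPKM in Chd1-null 1 against 13.4 in control 1, and at 10.4 in Chd1-null 2 against 9.94 in control 2. It fell by 0.78 (SE 0.28, limma adjusted p = 0.0494), with log2 ratios of -1.64 in set 1 and 0.07 in set 2. Relative to each set's median, 0 genes of these partner lists passed in limma. Unadjusted p-values under 0.05 were found for 3 polymerase subunits, 1 general transcription factor, 0 elongation factors and 2 coactivator or cohesin genes. Among all 10261 tested genes such limma p-values were found for 645. With one common prior variance or without set as a block, 0 of these partner genes passed on the deposited scale either.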

How the data were processed

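Total RNA from equal cell numbers was depleted of ribosomal RNA and sequenced as strand-specific paired-end libraries, per the labels' protocols. The submitters' processing notes name TopHat2 2.0.10, Cufflinks 2.2.0, Cuffdiff and the mm9 build; their roles, the annotation and the use of the spike-ins are not stated there. Each deposited table gives 1 Chd1-null and 1 control column, read here as FPKM from the tool names and values, since the header names no unit, and the deposited ratio of both columns. Read depth is unknown. Genes with a mean of at least 1 FPKM were tested as log2(FPKM + 0.1) with limma 3.58.1 (R 4.3.3), set as a block and a variance trend on level, with Benjamini-Hochberg adjustment over all tested genes; fold changes are on that scale and understate low genes. The relative comparison subtracts each set's median log2 ratio, except in fits without the block, where each library was centred on its own median. Same-set libraries deviated together (r = 0.48 across tested genes), and the labels name the set. The members and lists were chosen with earlier results of these data known. Full values are given for members that passed, the 3 highest and 3 lowest by relative change with one sign in both sets, the kinase module, the 3 whose sets differed most and partner genes that passed; those of Med14, Med24 and Med26 were added after their values were seen. The values of 1 partner gene that passed are not reported here.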

Additional observations from a re-analysis of the deposited data

How the results depend on the processing

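Among all tested genes 1006 fell and 7 rose as deposited, and the counts were 225 and 2 with a mean of at least 5 FPKM, 37 and 50 with each library divided by its FPKM sum, and 42 and 27 with its upper quartile. With a pseudocount of 1, 4 rose. With one common prior variance 0 and 0 passed (limma, lowest adjusted p 0.288, 1718 with an unadjusted p under 0.05). Without set as a replicate block 0 and 0 passed (limma, lowest adjusted p 0.461, 1043 unadjusted). Leaving out a library also removed the block, so calls from those fits could not show dependence on that library and are not given. In the relative comparison, 22 and 15 became 3 and 2 with at least 5 FPKM, and 1 and 0 with the level trend subtracted. They became 0 and 0 with a common prior variance, without the replicate block or with the length trend subtracted. In that comparison Chd1 also did not pass with at least 5 FPKM or with the level trend subtracted (limma adjusted p of 0.156 and 0.298). Of the 5 Mediator genes that fell, 3 (Med1, Med19 and Med25) passed with no filter and with robust eBayes, and 4 with a pseudocount of 1. Of the 5, 0 passed with at least 5 FPKM (which left Med15 untested), a common prior variance, no replicate block or either scaling. Pol II subunits that fell numbered 0, elongation genes 0 and coactivators 1 with at least 5 FPKM, and 0 each with a common prior variance or no replicate block. Divided by the FPKM sum, the median fold change of all genes was -0.01 (-0.05 with the upper quartile, -0.41 as deposited), 13 of 30 Mediator genes changed sign (12 with the upper quartile), and medians were 0.14 for the head, 0.14 for the middle, -0.16 for the tail and 0.088 for all members. Ccnc, Cdk8 and Med30 then turned to 0.27, 0.14 and 0.35 (0.23, 0.11 and 0.31 with the upper quartile). A pseudocount of 1 gave medians of -0.25 for the middle and -0.30 for all members, at least 5 FPKM -0.29 for all, and means in place of medians -0.35 and -0.40 (relative 0.043 and -0.0027). Leaving out 1 library or set turned signs of genes that had not passed: on the deposited scale Ccnc ranged from -0.38 to 0.12, Med10 from -0.33 to 0.65, Med12 from -1.36 to 0.20, Med13l from -1.33 to 0.33, Med27 from -0.23 to 0.37 and Med30 from -0.28 to 0.18. In the relative comparison Cdk19 ranged from -0.76 to 0.31, Med1 from -0.89 to 0.29 and Med12 from -0.90 to 0.52. Med13 ranged from -0.60 to 0.24, Med13l from -0.90 to 0.75 and Med25 from -0.42 to 0.033. With the length trend subtracted Med13l stood at 0.028. With 1 library left out, both comparisons had no block, so libraries were compared across sets, whose scaling to each other is not known. Within set 1 and set 2 the log2 ratios were -0.02 and 0.34 for Med10, -1.10 and 0.10 for Med13l, and 0.16 and -0.03 for Med27. The wider ranges of these 3 genes come from the fits across sets. With 1 library left out, or with no replicate block, the relative comparison centred each library on its own median. Among the fits with 1 library left out, the deposited-scale change was 0.085 for Ccnc without Chd1-null 2. It was -0.14 for Med10 and 0.0043 for Med12 without Chd1-null 1, and -0.14 for Med27 without control 2. The relative change was 0.22 for Med13l without Chd1-null 2 and 0.033 for Med12 without control 1. The cause of these changes was not tested. Depth is unknown, so no counting error could be given.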

Other observations

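Med20 and Med28 were given with a neighbour as 1 locus in set 1 and alone in set 2, so they entered no comparison. The joint locus of Med20 and Usp49 was at 21.0 FPKM in Chd1-null 1 against 20.5 in control 1, and Med20 alone at 18.5 in Chd1-null 2 against 22.4 in control 2. The joint locus of Lap3 and Med28 was at 73.4 FPKM in Chd1-null 1 against 92.8 in control 1, and Med28 alone at 7.39 in Chd1-null 2 against 11.3 in control 2.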
